A study of Mus musculus with 24 samples.

Results

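The comparison covered 12 arrays from alpha-synuclein carriers and 12 arrays from non-carriers, 24 of the 24 arrays of the study. Arrays were assigned by their titles. The carriers were 6 arrays labelled aSYN and 6 labelled aSYN/70, written aSYN/Hsp70 here. The non-carriers were 6 arrays labelled wt and 6 labelled Hsp70. All arrays held RNA of whole mouse brains at an age of 4 months. Each Hsp70 background therefore had its own pair of groups, aSYN with wt and aSYN/Hsp70 with Hsp70, and the effect of aSYN was the mean of both differences. The name aSYN is not explained in the labels and was taken to mean alpha-synuclein. They give no promoter, construct, strain or line for either genotype. Whether each array came from its own mouse is not stated, and the p-values then cover only the spread among arrays, which may be technical.

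Alpha-synuclein is a small protein of nerve terminals that binds synaptic vesicles and helps the SNARE proteins of vesicle fusion to assemble. It is the main component of Lewy bodies, the protein deposits of Parkinson's disease. Misfolded alpha-synuclein is handled by HSP70 chaperones, by the proteasome and by autophagy, and these pathways are described below beside the cell types of the brain. The mouse gene of alpha-synuclein was not analysed here, so the aSYN label has no check in these values.

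Values are log2 intensities of probe sets, the groups of probes that read 1 transcript, after quantile normalisation. Markers of the main brain cell types were measured, with 12 of 12 astrocyte genes, 12 of 13 oligodendrocyte genes, 14 of 15 microglial genes and 9 of 10 genes of cortical and hippocampal excitatory neurons tested. The untested genes of these lists had no named probe set, and none was left out as dim. Spearman correlations between arrays, as a median for each array, ran from 0.883 to 0.973. The lowest array weights, which limma assigns by how far an array lies from its group, were 0.124 for aSYN/Hsp70 replicate 4 and 0.394 for aSYN/Hsp70 replicate 3, and 0.251 for Hsp70 replicate 3 and 0.332 for Hsp70 replicate 6. By Xist, 6 of 12 carrier arrays and 7 of 12 non-carrier arrays were female. The 3′ minus 5′ difference of the control transcripts, a measure of RNA quality, averaged 0.898 ± 0.169 log2 units in carriers and 0.899 ± 0.149 in non-carriers (SD, 12 arrays each). Carriers minus non-carriers, it was 0.105 without Hsp70 and -0.105 with Hsp70. None of 9 such array measures separated carriers from non-carriers (exact two-sided permutation tests within Hsp70 backgrounds, p 0.258 to 0.996, adjusted p = 0.996 for each).

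No probe set differed between carriers and non-carriers after adjustment. In limma, 0 of 27022 tested probe sets were called at an adjusted p under 0.05 (0% called), and the smallest adjusted p was 0.196. At an unadjusted p under 0.05 there were 1726 probe sets (6.39%), of which 696 were higher in carriers (2.58%) and 1030 lower (3.81%). The median difference over all tested probe sets was -0.01 log2 units, and 47.0% were positive. Without the 4 arrays of low weight, 927 probe sets were higher and 1275 lower at that unadjusted threshold, and 2 were called. Leaving out any 1 array made 0 calls except for 1 call each without Hsp70 replicate 3 (Nbea) and without Hsp70 replicate 6 (an unnamed probe set, -0.83, limma adjusted p = 0.0481). The 12 carriers lay wholly outside the range of the 12 non-carriers in 0 of 27022 probe sets (0%), while at least 8 carriers lay outside it on the same side in 74 (0.274%) and at least 6 in 588 (2.18%).

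The size of effect that could have been missed is given by the intervals. The 95% interval of a difference reached a median of 0.263 log2 units to either side of it, and 0.130 and 0.658 at percentiles 10 and 90 of the probe sets. For 17555 probe sets (65.0%) the whole interval lay within 0.5 log2 units of 0. In simulated arrays with 200 changed probe sets, this test recovered 48% of changes of 0.5 log2 units and 78% of changes of 1, with 4 false calls. The simulated noise was independent between probe sets and alike in all arrays. The real arrays include 4 of low weight, so these figures need not hold for them.

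Nbea had the smallest p of all probe sets. It encodes neurobeachin, a large scaffold protein that takes part in the delivery of receptors to synapses. Nbea read a lowest, median and highest value of 14.10, 14.21 and 14.48 in aSYN arrays, against 14.52, 14.68 and 14.93 in wt arrays. With Hsp70 it read 13.99, 14.20 and 14.35 in aSYN/Hsp70 arrays, against 14.22, 14.60 and 14.80 in Hsp70 arrays. Every aSYN array thus lay below every wt array, as was so without overlap in either direction for 315 probe sets (1.17%), while the Hsp70 array at 14.22 lay within the aSYN/Hsp70 range. The mean difference between carriers and non-carriers was -0.42 (SE 0.07, 95% interval -0.57 to -0.27, limma adjusted p = 0.196), with -0.47 without Hsp70 and -0.37 with it. Only 1 probe set of Nbea was tested. Nbea was called with array weights (-0.47, adjusted p = 0.00439), with a trended and robust variance (-0.42, adjusted p = 0.0206), without the 4 arrays of low weight (-0.47, adjusted p = 0.0416) and without Hsp70 replicate 3 (-0.46, adjusted p = 0.0265). Over the 36 settings, alternatives and the main one together, its adjusted p ran from 0.00439 to 0.467.

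Fcrls, an Fc receptor-like gene that marks mouse microglia, had the next smallest p. Its values were 9.56, 10.64 and 11.05 in aSYN arrays, against 11.06, 11.39 and 11.64 in wt arrays, and 9.80, 10.37 and 10.92 in aSYN/Hsp70 arrays, against 10.88, 11.27 and 11.60 in Hsp70 arrays (lowest, median and highest). The aSYN and wt arrays did not overlap, and 9 of 12 carriers lay below the lowest non-carrier. The difference was -0.87 (SE 0.16, limma adjusted p = 0.298), with -0.92 without Hsp70 and -0.82 with it. Only 1 probe set of Fcrls was tested. The other 13 tested genes of the microglia list ran from -0.18 (Itgam) to 0.14 (Tmem119), and the macrophage growth factor receptor Csf1r stood at -0.00. In RNA of a whole brain, fewer cells of a type and less RNA per cell cannot be told apart.

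Trim59, a RING-type ubiquitin ligase, and Map7, a microtubule-binding protein that recruits kinesin, were lower in carriers without reaching the threshold. Trim59 had a median of 10.29 in carriers (9.90 to 10.76) and 10.99 in non-carriers (10.11 to 11.31). Its difference was -0.57 (SE 0.12, limma adjusted p = 0.303), made up of -0.87 without Hsp70 and -0.27 with it, and its other probe set differed by -0.63. Map7 had a median of 9.52 in carriers (8.92 to 9.96) and 9.98 in non-carriers (9.79 to 10.28), a difference of -0.46 (SE 0.10, limma adjusted p = 0.303). In both genes every aSYN array lay below every wt array, and for Map7 9 of 12 carriers lay below the lowest non-carrier.

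Gnb1, which encodes a beta subunit of heterotrimeric G proteins, had the smallest p among higher probe sets. It read 12.74, 13.79 and 14.82 in aSYN arrays, against 12.36, 13.08 and 13.22 in wt arrays, and 14.46, 14.77 and 15.01 in aSYN/Hsp70 arrays, against 12.63, 13.11 and 14.75 in Hsp70 arrays (lowest, median and highest). The aSYN/Hsp70 arrays were close together, while the aSYN and Hsp70 arrays were widely spread and overlapped with the groups they were set against. The difference was 1.15 (SE 0.24, 95% interval 0.65 to 1.65, limma adjusted p = 0.315), with 0.93 without Hsp70 and 1.37 with it, and 11 of 12 carriers lay above the non-carrier mean. A second probe set of Gnb1 differed by 0.61. Gpr1, a receptor for the peptide chemerin, had a median of 9.33 in carriers (8.80 to 9.94) and 8.88 in non-carriers (8.36 to 9.13), a difference of 0.50 (SE 0.11, limma adjusted p = 0.332). Gpr1 stood at 0.21 without Hsp70 and 0.79 with it, an uneven pair, and only 1 probe set of Gpr1 was tested. It was called only without the 4 arrays of low weight (0.53, adjusted p = 0.0416). Mrpl41, a subunit of the mitochondrial ribosome, had a median of 14.05 in carriers and 13.67 in non-carriers. All 12 carriers lay above the non-carrier mean of Mrpl41, with a difference of 0.34 (SE 0.08, limma adjusted p = 0.547) and 0.44 at its second probe set.

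**Figure D1:**
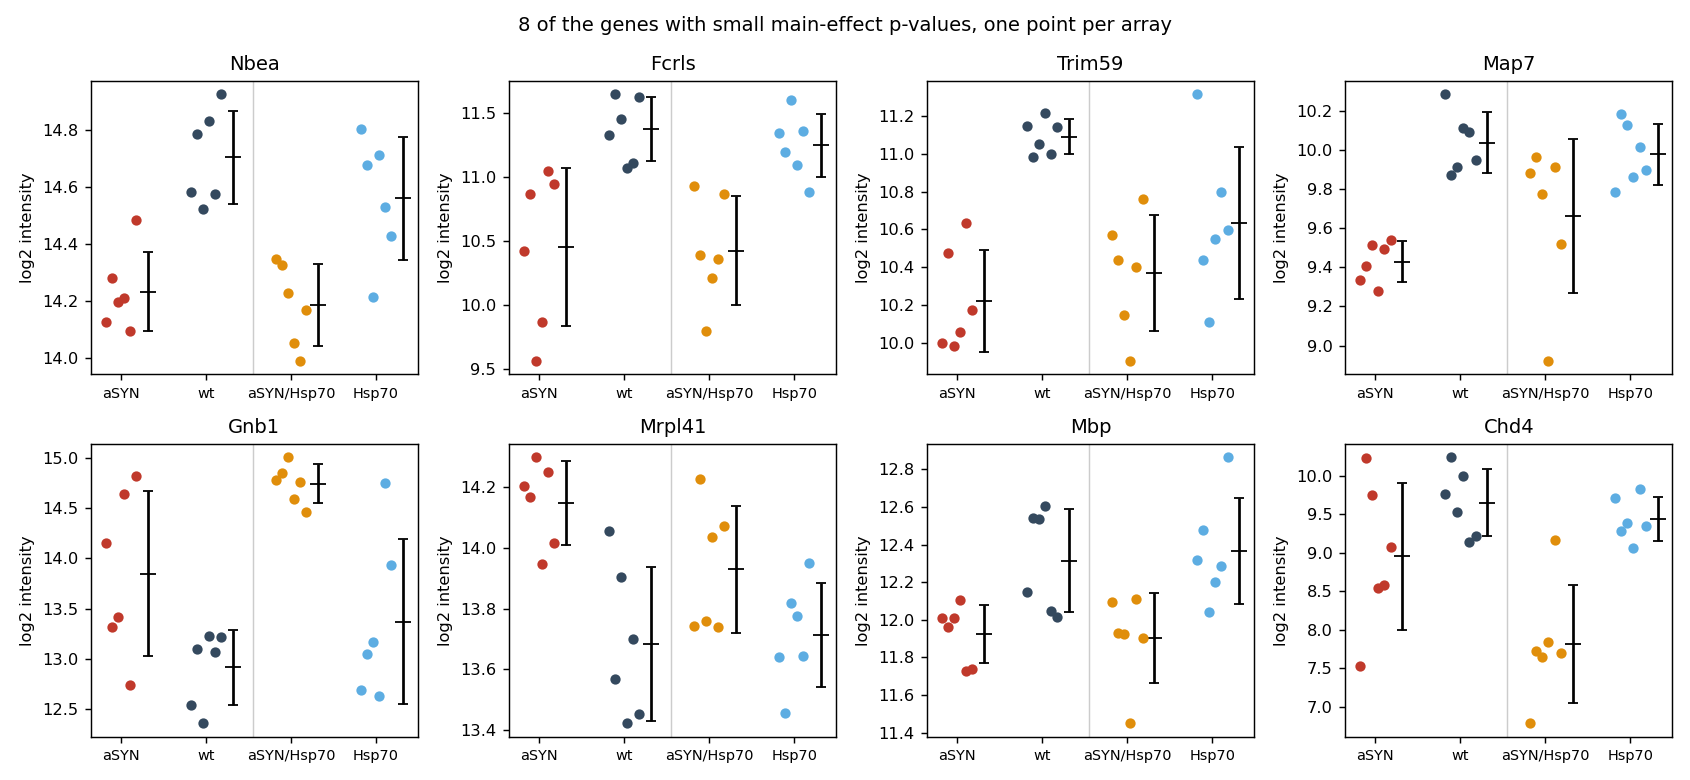
Log2 intensity (vertical axis) of 8 genes in each of the 24 arrays, with 1 point per array, groups along the horizontal axis and the mean and SD of 6 arrays beside each group. The aSYN and wt points do not overlap for Nbea, Fcrls, Trim59 and Map7, the aSYN/Hsp70 and Hsp70 points overlap for Nbea, and the Gnb1 points of aSYN and Hsp70 arrays are widely spread.

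The remaining genes with small p, chosen as the 12 smallest in each direction, had limma adjusted p between 0.47 and 0.547. Lower in carriers were the chromatin remodeller Chd4 (-1.16), the cytokine receptor-like factor Crlf3 (-0.48), myelin basic protein Mbp (-0.43), the myelin-related Ndrg1 (-0.29), the atypical protein kinase C Prkcz (-0.39), the centriole protein Cep120 (-0.26), the actin-spectrin linker Add1 (-0.25) and the membrane protein stomatin, Stom (-0.89). Higher in carriers were the ubiquitin ligases Rnf157 (0.82) and Trim27 (0.24), the caveolin Cav2 (0.32), the adhesion protein Ceacam1 (0.52), the phosphatase inhibitor Ppp1r2 (0.52), the Golgi lipid kinase Pi4kb (0.69), corneodesmosin, Cdsn (1.32), Fam71f1 (0.78) and the lipoic acid synthase Lias (0.22). Ndrg1 and Stom each had 10 of 12 carriers below the lowest non-carrier, and Ppp1r2 had 10 of 12 above the highest. Ceacam1 stood at 0.07 without Hsp70 and 0.98 with it, and Rnf157 at 0.25 and 1.38, so the mean of each hides an uneven pair. The test of that unevenness, the interaction, gave adjusted p of 0.315 for Ceacam1 and 0.402 for Rnf157.

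Other probe sets of the same gene give a second reading of the same RNA. Of 6266 genes with 2 or more tested probe sets, 20 had at least 2 higher in carriers at an unadjusted p under 0.05, 64 had at least 2 lower and 12 had some in each direction, while 855 had only 1 such probe set. Without the 4 arrays of low weight these counts were 28, 104 and 22. Ndrg1, whose loss causes a demyelinating neuropathy in humans, was lower in 5 of 5 probe sets (-0.29 to -0.14), 4 of them at an unadjusted p under 0.05. Map7 was lower in 3 of 3 (-0.46 to -0.13), and Mbp was lower in 8 of 8, from -0.43 to -0.00. Several other genes, Chd4, Stom, Rnf157, Crlf3, Pi4kb, Ceacam1, Prkcz and Ppp1r2 among them, did not repeat in this way. The probe set of Chd4 at -1.16 stood beside others at -0.17 and -0.02, that of Stom at -0.89 beside 4 others between -0.19 and 0.07, and that of Rnf157 at 0.82 beside 4 others between -0.16 and 0.02. The Prkcz value of -0.39 stood beside -0.03 and -0.02, and the Ppp1r2 value of 0.52 beside 3 others between -0.07 and 0.00. Crlf3 had another probe set at -0.02, Pi4kb one at -0.19, and Ceacam1 4 others at -0.43, -0.21, 0.21 and 0.22.

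**Figure D2:**
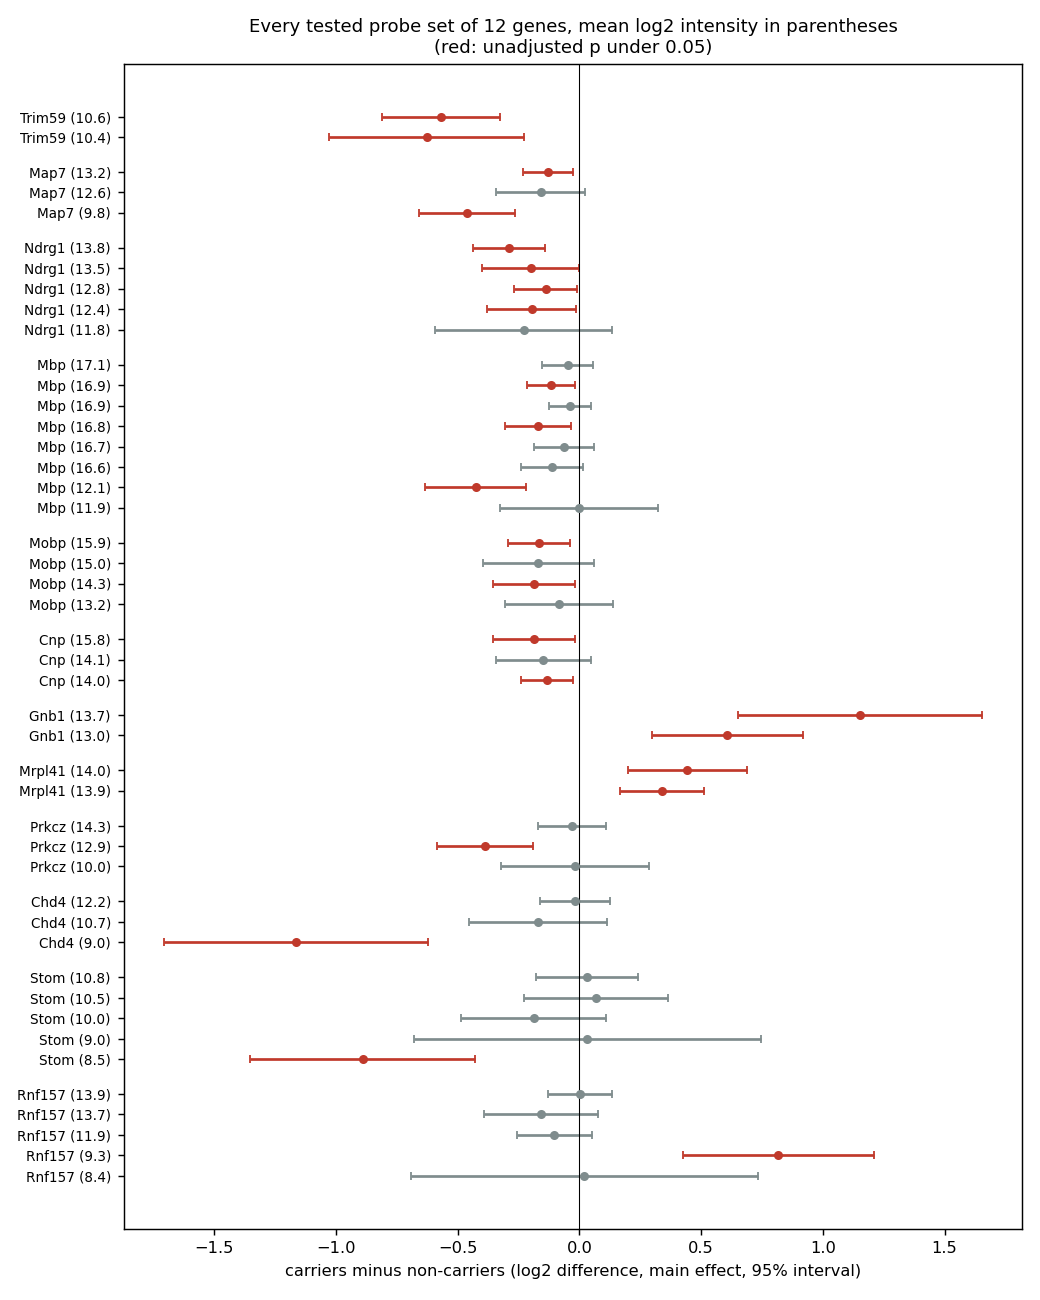
Main-effect difference in log2 units, carriers minus non-carriers (horizontal axis), with its 95% interval, for every tested probe set of 12 genes (vertical axis, mean log2 intensity in parentheses). Probe sets of Trim59, Map7, Ndrg1, Mobp, Cnp, Gnb1 and Mrpl41 lie on the same side of 0, while single probe sets of Chd4, Stom, Rnf157 and Prkcz lie away from the others of their gene.

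The differences without and with Hsp70 share no array, so each can be read beside the other. In aSYN against wt, limma called 1 of 27022 probe sets (0.0037%), with 1398 at an unadjusted p under 0.05 (5.17%), 503 higher (1.86%) and 895 lower (3.31%). The called probe set belonged to Sort1, the gene of the sorting receptor sortilin, chosen after its values were seen. It stood at -0.68 without Hsp70 (adjusted p = 0.038) and 0.19 with it. The other tested probe sets of Sort1 were lower in both backgrounds, at -0.39 and -0.05 and at -0.13 and -0.05. This comparison made 217 calls with array weights, 35 without the 4 arrays of low weight, 0 with the sex covariate, 0 with no filter on dim probe sets and 0 to 5 with any 1 array left out. In aSYN/Hsp70 against Hsp70, 0 probe sets were called (0%), and 0 to 2 with any 1 array left out. At an unadjusted p under 0.05 there were 2599 (9.62%), 1093 higher (4.04%) and 1506 lower (5.57%). Across probe sets the 2 differences correlated at -0.01. Both differences had an unadjusted p under 0.05 in the same direction for 48 probe sets (0.178%), 32 lower (0.118%) and 16 higher (0.0592%), and in opposite directions for 117 (0.433%). Without the 4 arrays of low weight these counts were 75 and 183. Opposite directions were thus more common than the same direction, with or without those arrays. The counts were not tested against chance, so the 48 probe sets are not shown to be shared by both backgrounds.

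Among the probe sets with small p in both backgrounds, the values were close to each other by construction of that choice, and they are given as a description. Abcc8, the sulfonylurea receptor subunit of a potassium channel, stood at -0.40 without Hsp70 and -0.38 with it, and its second probe set had a main effect of -0.30. Cd47, a surface signal that restrains phagocytosis, stood at 0.47 and 0.54, while 3 other probe sets of Cd47 had main effects between -0.04 and 0.04 and the remaining one 0.61. The Golgi SNARE gene Bet1l stood at 0.37 and 0.34, and 4930429B21Rik at 0.39 and 0.49. The 3 other probe sets of Bet1l had main effects of 0.07, 0.05 and -0.04, each higher without Hsp70 and lower with it. The limma adjusted p of the main effect was between 0.547 and 0.575 for these 4 genes.

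The interaction asked whether the aSYN difference itself differed between backgrounds. No probe set was called in limma (0 of 27022, 0%, smallest adjusted p = 0.0516), with 2198 at an unadjusted p under 0.05 (8.13%), 1173 positive (4.34%) and 1025 negative (3.79%). It made 30 calls without aSYN/Hsp70 replicate 6, 14 without Hsp70 replicate 1, 6 without Hsp70 replicate 3 and 2 without Hsp70 replicate 6, and 0 without any other array. Pde10a, the phosphodiesterase of striatal projection neurons, is described first at the probe set named by the list rule, which read 12.92, 13.30 and 13.35 in aSYN arrays, against 13.54, 13.62 and 13.85 in wt arrays, and 13.40, 13.49 and 13.80 in aSYN/Hsp70 arrays, against 13.21, 13.42 and 13.49 in Hsp70 arrays (lowest, median and highest). It was thus lower in every aSYN array than in any wt array, and on the higher side with Hsp70. The difference was -0.46 without Hsp70 and 0.14 with it, an interaction of 0.60 (SE 0.13, limma adjusted p = 0.107). The 4 other probe sets of Pde10a disagreed on the Hsp70 background. Without Hsp70 and with it, 2 stood at -0.62 and 0.11 and at -0.22 and 0.14, and 2 were lower in both, at -0.27 and -0.38 and at -0.28 and -0.70. For the first probe set, the main effect of -0.16 (adjusted p = 0.766) is a mean of 2 differences of opposite sign.

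**Figure D3:**
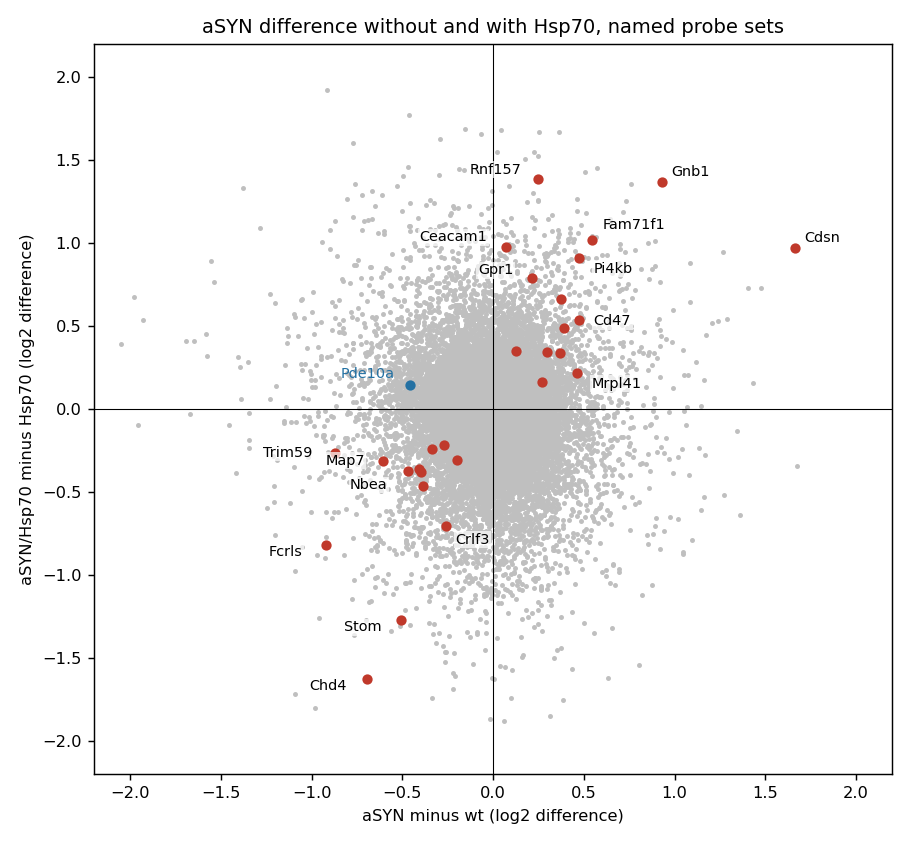
Log2 difference of aSYN minus wt (horizontal axis) and of aSYN/Hsp70 minus Hsp70 (vertical axis) for 23590 named probe sets (grey), with 28 genes of smallest main-effect p or of small p in both backgrounds in red and Pde10a in blue. The red points lie below 0 or above 0 on both axes, a pattern that choosing them by small p favours. Ceacam1 (0.07 and 0.98) lies close to the vertical line at 0, and the plotted probe set of Pde10a lies at -0.46 and 0.14.

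The synuclein relatives and the genes of familial parkinsonism showed no common direction. Of 17 tested members, 9 were higher and 8 lower in carriers, 0 were called, 0 had an unadjusted p under 0.05, and the median was 0.01, against -0.00 over all 12929 named genes. Beta-synuclein, Sncb, had a median of 13.50 in carriers and 13.45 in non-carriers (13.03 to 14.02), a difference of 0.07 (SE 0.10, limma adjusted p = 0.924). The lowest and highest carriers lay close to the lowest and highest non-carriers. Gamma-synuclein, Sncg, stood at 0.02 without Hsp70 and -0.71 with it, where aSYN/Hsp70 replicate 4 read 7.64, far below the group's median of 10.15. The kinase genes Pink1 (0.28) and Lrrk2 (-0.18) had the largest values in each direction after Sncg, at unadjusted p of 0.0697 and 0.0621 in limma.

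The nerve terminal genes with which alpha-synuclein acts had no common direction either. Of 21 tested genes of synaptic vesicles and release, 11 were higher and 10 lower, with a median of 0.00, and the SNARE genes Snap25 (0.00), Stx1a (0.02) and Vamp2 (-0.08) were among them. Syn2, a synapsin that tethers vesicles, had an unadjusted p under 0.05, with a median of 14.85 in carriers and 14.69 in non-carriers and a difference of 0.17 (SE 0.08, limma adjusted p = 0.777), which was 0.0742 without the 4 arrays of low weight. Its 4 other probe sets stood at 0.17, 0.15, 0.09 and -0.15. Of 19 postsynaptic and calcium signalling genes, 6 were higher and 13 lower (3 and 16 without the 4 arrays of low weight). Gria2, an AMPA receptor subunit, differed by -0.14 (SE 0.04, adjusted p = 0.742), with 8 of 12 carriers below the lowest non-carrier, and its 2 other probe sets by -0.06 and -0.02. Camk4, a calcium-dependent kinase, differed by -0.27 (adjusted p = 0.766), and its 4 other probe sets by -0.66, -0.31, 0.09 and 0.23.

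HSP70 and its partners are the chaperones that the other genotype of the study concerns. Of 18 tested members 8 were higher and 10 lower, with a median of -0.03, and 0 had an unadjusted p under 0.05. The median turned to 0.00486 without aSYN/Hsp70 replicate 4, and without the 4 arrays of low weight 11 were higher and 7 lower. Hspa1a, an inducible HSP70 gene, had a median of 11.14 in carriers (7.86 to 11.53) and 11.07 in non-carriers (10.15 to 11.45). Its difference of -0.05 (SE 0.30) was 0.23 without aSYN/Hsp70 replicate 4, which read 7.86. The sequence of Hspa1b is nearly that of Hspa1a, so probes may not tell the genes apart. Its 3 probe sets differed by -0.21, -0.12 and 0.03, with limma adjusted p of 0.901, 0.953 and 0.987.

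**Figure D4:**
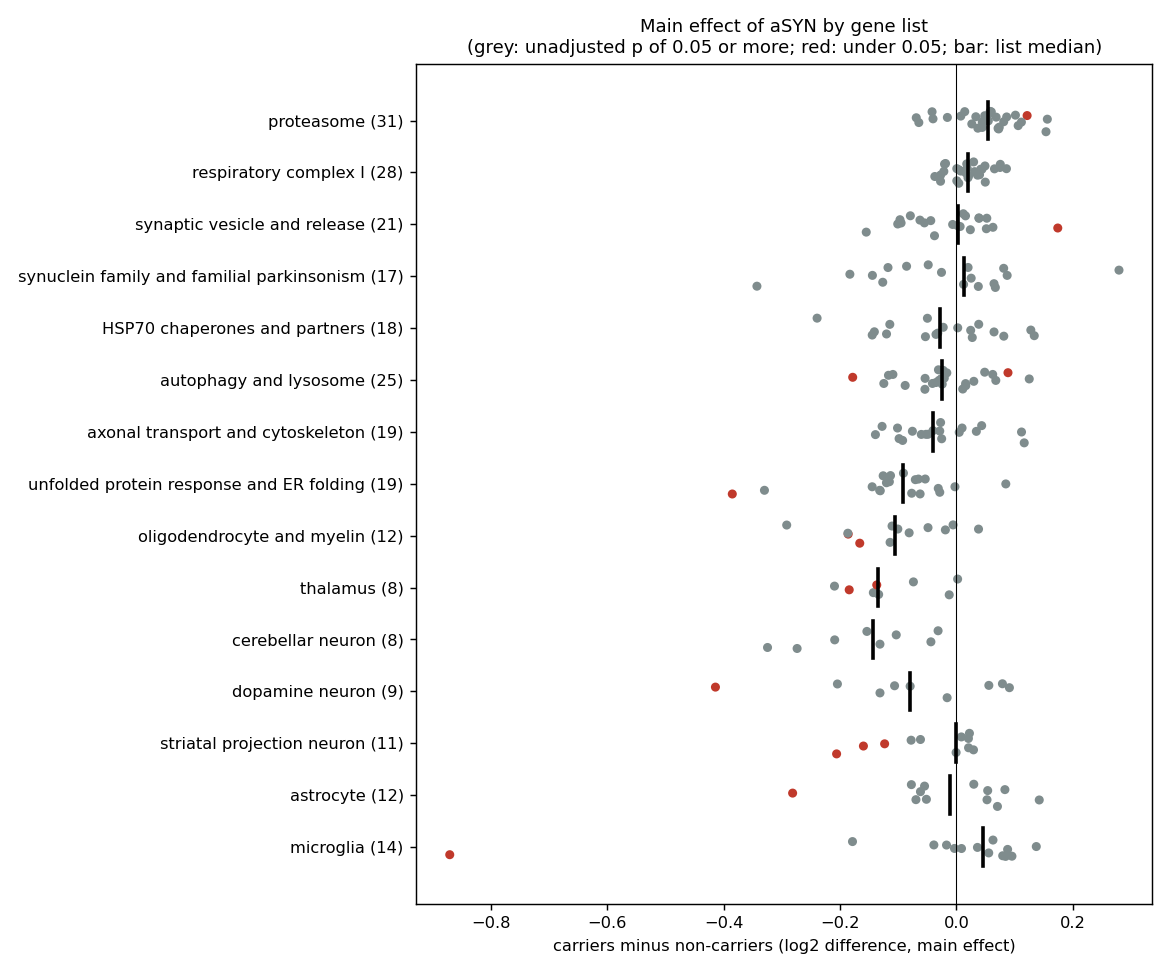
Main-effect difference in log2 units, carriers minus non-carriers (horizontal axis), for the brightest probe set of each tested gene in 15 lists (vertical axis, number of genes in parentheses), with red points at an unadjusted p under 0.05 and a bar at the median of each list. Most proteasome points lie right of 0, most unfolded protein response, myelin and thalamus points lie left of it, and Fcrls is the microglial point at -0.87.

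Among the systems that clear misfolded protein, the proteasome list stood out by count and not by size. Of 31 tested proteasome genes 26 were higher and 5 lower in carriers (27 and 4 without the 4 arrays of low weight), 0 were called, and 1 passed an unadjusted p of 0.05. Over all named genes, 6383 were higher and 6546 lower. The median was 0.05 log2 units, made up of 0.09 without Hsp70 and 0.02 with it, and it ran from 0.0442 to 0.0667 with any 1 array left out. In aSYN against wt 27 were higher and 4 lower, and in aSYN/Hsp70 against Hsp70 20 and 11. Psma4, a subunit of the core particle, had a median of 14.74 in carriers (14.57 to 14.92) and 14.63 in non-carriers (14.41 to 14.87), a difference of 0.12 (SE 0.05, limma adjusted p = 0.777). The largest values were those of Psmb2 (0.16) and Psma5 (0.15), and the lowest was that of the regulatory ATPase Psmc5 (-0.07). The mean over the list, set to 0 at the non-carrier mean, ran from 0.00 to 0.11 in carriers, with a median of 0.05, and from -0.07 to 0.07 in non-carriers, with a median of -0.02, so the ranges overlap. That mean differed by 0.079 without Hsp70 and by 0.021 with it, beside a within-group SD of 0.045.

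The genes of the unfolded protein response and of folding in the endoplasmic reticulum lay on the lower side. Of 19 tested members 18 were lower and 1 higher in carriers (17 and 2 without the 4 arrays of low weight), 0 were called, and the median was -0.09, with -0.12 without Hsp70 and -0.05 with it. Pdia4, a disulfide isomerase, had a median of 10.56 in carriers (9.91 to 11.41) and 10.85 in non-carriers (10.51 to 11.79), a difference of -0.39 (SE 0.14, limma adjusted p = 0.766). The main chaperone of this compartment, Hspa5, stood at -0.13, the transcription factor Xbp1 at -0.12 and the stress kinase Eif2ak3 at 0.09. The mean over the list ran from -0.27 to 0.13 in carriers and from -0.18 to 0.27 in non-carriers. The within-group SD of that mean was 0.15, which is larger than the median difference of the genes.

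Autophagy and lysosome genes, the other route of clearance, were mostly within 0.1 log2 units of 0. Of 25 tested members 9 were higher and 16 lower, with a median of -0.02. The ubiquitin-like autophagosome protein Gabarap was higher (0.09, limma adjusted p = 0.777) and the lysosomal cholesterol transporter Npc1 lower (-0.18, adjusted p = 0.777), each at an unadjusted p under 0.05. All 12 carriers lay above the non-carrier mean of Gabarap, though the non-carrier range of 14.82 to 15.14 covered the carrier range of 14.93 to 15.10.

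Mitochondrial genes are of interest because complex I of the respiratory chain is impaired in Parkinson's disease. Of 28 tested complex I genes 22 were higher and 6 lower, with a median of 0.02 and no member beyond 0.09 (Ndufa3) or -0.04 (Ndufa4). Without Hsp70 24 were higher and 4 lower (median 0.05), while with Hsp70 11 were higher and 17 lower (median -0.01). None had an unadjusted p under 0.05. The antioxidant list had 10 higher and 8 lower of 18. Its mitochondrial superoxide dismutase, Sod2, had a median of 14.12 in carriers (13.75 to 14.26) and 13.95 in non-carriers (13.78 to 14.07), a difference of 0.15 (SE 0.05, limma adjusted p = 0.758), with 8 of 12 carriers above the highest non-carrier. Of the 3 other Sod2 probe sets, 2 were higher (0.12 and 0.24) and 1 lower (-0.10).

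**Figure D5:**
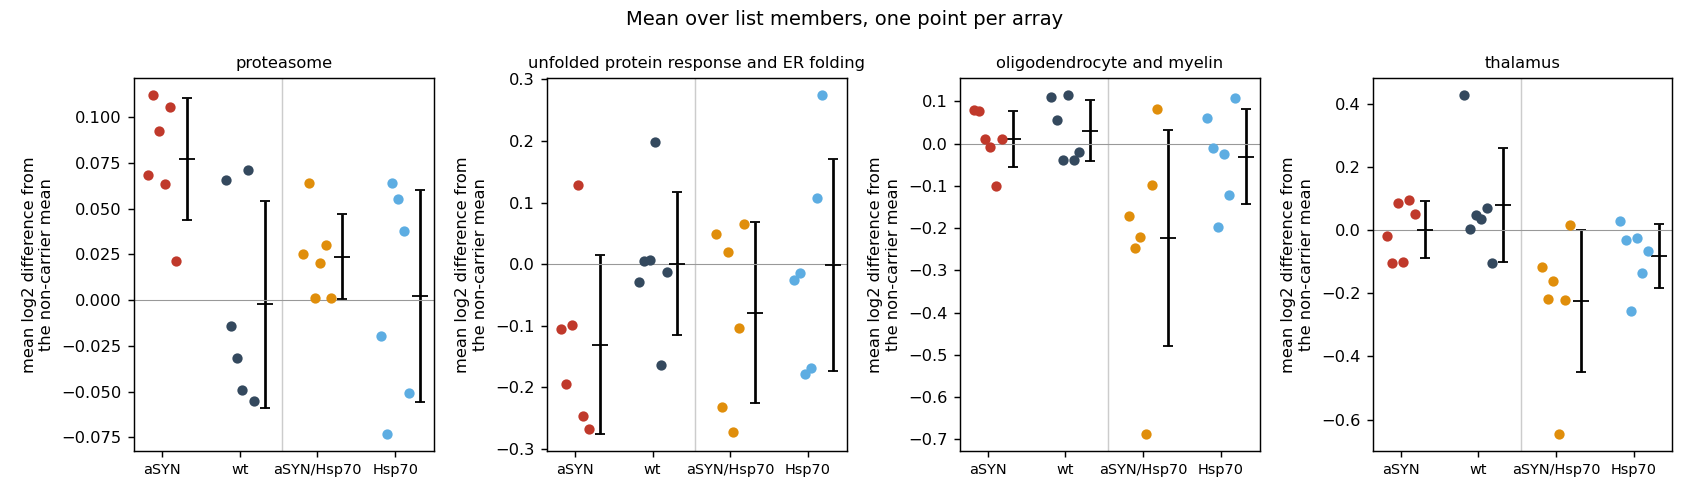
Mean log2 difference from the non-carrier mean over the members of 4 lists (vertical axis), with 1 point per array, groups along the horizontal axis and the mean and SD of 6 arrays beside each group. The proteasome mean of aSYN arrays lies between 0.02 and 0.11 while wt arrays spread from -0.06 to 0.07, and aSYN/Hsp70 replicate 4 is the lowest point for myelin (-0.69) and thalamus (-0.65).

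Myelin genes were lower in carriers for 11 of 12 tested members, with 1 higher, 0 called and 2 at an unadjusted p under 0.05. The median was -0.11, with -0.01 without Hsp70 and -0.14 with it. Mobp, a myelin-associated basic protein, had a median of 15.80 in carriers (15.64 to 16.21) and 15.99 in non-carriers (15.84 to 16.20), a difference of -0.17 (SE 0.06, limma adjusted p = 0.766). Cnp, the myelin phosphodiesterase, differed by -0.19 (SE 0.08, adjusted p = 0.777), and all tested probe sets of Mobp (4) and Cnp (3) were lower. At the probe set of Mbp with a small p, the aSYN arrays read 11.73, 11.98 and 12.10, against 12.01, 12.34 and 12.60 in wt arrays, and the aSYN/Hsp70 arrays 11.45, 11.93 and 12.11, against 12.04, 12.30 and 12.86 in Hsp70 arrays. The ranges overlap slightly in both backgrounds, and 9 of 12 carriers lay below the lowest non-carrier (difference -0.43, SE 0.10, adjusted p = 0.517). The probe set used for Mbp in the list, the brightest, differed by -0.05. The list median was -0.0737 without aSYN/Hsp70 replicate 4, whose list mean was -0.687, and -0.0456 without the 4 arrays of low weight, with 10 lower and 2 higher. At -0.687 that array stood far below the other 11 carriers, whose list means overlapped with those of the non-carriers.

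Dopamine neurons of the midbrain are the cells lost in Parkinson's disease, and striatal neurons receive their input. Of 9 tested dopamine neuron genes 3 were higher and 6 lower, with a median of -0.08 that was 0.05 without aSYN replicate 1. The dopamine-synthesising enzyme Th stood at 0.06 and the dopamine transporter Slc6a3 at -0.13. Ret, a receptor for neurotrophic factors, differed by -0.41 (limma adjusted p = 0.777), with carriers from 8.13 to 10.61 and non-carriers from 9.70 to 11.06. That value was made up of -0.09 without Hsp70 and -0.73 with it. The other probe set of Ret differed by -0.17, with -0.33 without Hsp70 and -0.01 with it. Of 11 striatal projection neuron genes 5 were higher and 6 lower with a median of -0.00, and 3 were lower at an unadjusted p under 0.05. These were Pde10a, the dopamine receptor Drd2 (-0.21, -0.23 without Hsp70 and -0.19 with it) and the adenylyl cyclase Adcy5 (-0.12). In Drd2 and Adcy5, 11 of 12 carriers lay below the non-carrier mean. The other probe set of Adcy5 stood at 0.11, with -0.11 without Hsp70 and 0.32 with it, and Drd1, the receptor of the other striatal pathway, stood at 0.01.

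Thalamic genes were lower for 7 of 8 tested members, with a median of -0.14 and with Prkcd (-0.18) and Rora (-0.14) at an unadjusted p under 0.05. The thalamus median was -0.0823 without aSYN/Hsp70 replicate 4, whose list mean was -0.646. The 9 tested probe sets of Rora disagreed, with values from -0.18 to 0.83. Cerebellar genes were lower for 8 of 8, with a median of -0.14, and 0 had an unadjusted p under 0.05. The cerebellar median was 0.0009 without wt replicate 1, whose list mean was 1.92. Pituitary genes were lower for 4 of 4 with a median of -0.37, but the difference was -1.27 without Hsp70 and 0.47 with it, and the list mean of wt replicate 5 was 4.47. The pituitary median was -0.0735 without that array. The part of these single arrays in the 3 values was not tested further.

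Glial and inflammatory genes showed no shared direction. Of 14 tested microglial genes 9 were higher and 5 lower (11 and 3 without the 4 arrays of low weight), with a median of 0.05. Of 12 astrocyte genes 6 were higher and 6 lower, and the transcription factor Sox9 differed by -0.28 (limma adjusted p = 0.777). Of 10 genes of reactive astrocytes 5 were higher and 5 lower. Among them Timp1, an inhibitor of matrix proteases, read 7.34 to 9.17 in carriers and 5.36 to 9.26 in non-carriers, with a difference of 0.86 (SE 0.37, adjusted p = 0.777), and the intermediate filament gene Gfap stood at 0.24. The carrier range of Timp1 lay within that of the non-carriers. Of 13 genes of the interferon response and MHC class I, 7 were higher and 6 lower, with a median of 0.21 without Hsp70 and -0.23 with it. Usp18, an interferon-induced protease, differed by 0.63 (SE 0.26, adjusted p = 0.766) and Ifi27 by 0.16 (adjusted p = 0.777), with all 12 carriers above the non-carrier mean of Ifi27. The non-carrier range of Ifi27 (12.63 to 13.26) covered every carrier (12.86 to 13.25), and its other probe set stood at -0.03. The neuropeptide gene Npy of the interneuron list differed by 0.31 (SE 0.15, adjusted p = 0.778), with aSYN/Hsp70 replicate 4 highest at 16.06.

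The other lists had 0 called members, and 0 members at an unadjusted p under 0.05 apart from Npy. Immediate early genes, which neurons switch on with activity, had 6 higher and 6 lower of 12, with a median of 0.26 without Hsp70 and -0.22 with it, and 9 higher and 3 lower without the 4 arrays of low weight. Markers of cortical and hippocampal excitatory neurons had 6 higher and 3 lower of 9, with medians of 0.18 and -0.16 in the same order. Of 19 genes of axonal transport and the cytoskeleton 6 were higher and 13 lower (median -0.04, and 3 and 16 without the 4 arrays of low weight), and of 15 circadian clock genes 9 were higher and 6 lower (0.04). Interneuron markers had 7 higher and 3 lower of 10 (0.07), hypothalamic markers 5 and 3 of 8 (0.18), and markers of serotonin, noradrenaline and acetylcholine neurons 3 and 1 of 4 (0.09, and 0.00791 without aSYN/Hsp70 replicate 4). The hypothalamic median was 0.0886 without the 4 arrays of low weight. Olfactory bulb markers had 2 higher and 2 lower of 4, with -0.33 without Hsp70 and 0.57 with it, and 4 higher and 0 lower without the 4 arrays of low weight. Immature neuron and proliferation genes had 1 higher and 5 lower of 6 (-0.03). Outside the neural tissue, endothelium and pericyte genes had 3 higher and 8 lower of 11 (-0.03), meningeal and fibroblast genes 5 and 6 of 11 (-0.02, and 7 and 4 without the 4 arrays of low weight), choroid plexus and ependyma genes 3 and 6 of 9 (-0.09), and blood genes 1 and 1 of 2 (-0.28). The blood median was -0.0456 without aSYN/Hsp70 replicate 4 and -0.0796 without the 4 arrays of low weight. Over all 12929 named genes, 365 were higher and 409 lower at an unadjusted p under 0.05 (5.99%).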

How the data were processed

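The authors deposited 1 intensity per probe set and array for 24 Affymetrix arrays. The deposited intensities are linear and had been scaled per array, since the mean without the lowest and highest 2% was 2500 in each, while medians ran from 458 to 893. The sources used here do not name the program that summarised the probes. Here intensities were taken as log2(intensity + 16), which understates differences of dim probe sets, and quantile normalised. The 64 control probe sets and the dimmest 40% (18015) were left out, and 27022 were tested, 23590 of them named, for 12929 genes. Of 45101 probe sets, 34945 carried 1 gene symbol in the platform annotation, 932 several and 9160 none, and 34741 had a gene ID listed in RefSeq's GRCm38.p6 genes. Genes were named from probe sets with 1 symbol.

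A mean per group was fitted to all 24 arrays with limma 3.58.1 in R 4.3.3 (lmFit, eBayes). The main effect is the mean of aSYN minus wt and aSYN/Hsp70 minus Hsp70. Adjusted p-values are Benjamini-Hochberg values over all tested probe sets, called at 0.05. The number of arrays limits the precision. The fit was tested on simulated arrays, which gave 0 calls when no probe set was altered.

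The 32 gene lists (467 genes, 414 tested, 30 without a named probe set), the members and the naming rule were chosen with earlier results of these data known. A list takes the brightest probe set of each gene. The rule named the 12 smallest p in each direction, up to 5 genes per direction with small p in both backgrounds, up to 3 genes per list at an unadjusted p under 0.05, and Hspa1a, Hspa1b, Sncb and Sncg. Other genes named as examples of a list were chosen after their values were seen. Alternatives were no quantile normalisation, an offset of 1 or 200, no filter or a 60% filter, an additive fit, the replicate number as a block, array weights, a sex covariate (Y-linked minus Xist), a trended and robust variance, and arrays left out. Counts without the 4 arrays of weight under 0.5 were added after seeing the data. Figures were drawn with matplotlib 3.10.9.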

Additional observations from a re-analysis of the deposited data

Results flagged for a closer look

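The 56 named probe sets were each read in every group of 6 arrays. Within these groups, 23 values stood apart from the nearest other array by more than Dixon's critical value, which chance alone passes in about 1 in 20 groups. In aSYN/Hsp70, replicate 4 held 7 of them, and it also had the lowest array weight of the study (0.124). It was highest for Rnf157 (11.37), 4930429B21Rik (11.49), the synapsin Syn2 (15.39) and the neuropeptide Npy (16.06), and lowest for Mbp (11.45), Sncg (7.64) and Hspa1a (7.86). The other lowest values in aSYN/Hsp70 were those of Ppp1r2 (9.42) and Hspa1b (11.19) in replicate 2, Lias (12.80) in replicate 1 and Sod2 (13.75) in replicate 6.

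In aSYN, Ceacam1 was highest in replicate 5 (10.79) and Mobp in replicate 1 (16.21), and Rora was lowest in replicate 3 (13.16), Timp1 in replicate 2 (7.69) and Hspa1a in replicate 5 (10.75). In Hsp70, replicate 3 was lowest for Cdsn (5.52), Cd47 (7.42) and the myelin gene Cnp (15.44). In wt, Ppp1r2 was lowest in replicate 5 (9.11), 4930429B21Rik in replicate 1 (9.50) and Hspa1a in replicate 3 (10.26), and Hspa1b was highest in replicate 4 (13.66).

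At 1 of 5 probe sets of Pde10a, the aSYN difference with Hsp70 minus that without it was 0.60 log2 units, while 2 of the other 4 were lower in carriers in both backgrounds (-0.28 and -0.27 without Hsp70, -0.70 and -0.38 with it). At the first probe set every aSYN array lay below the wt mean and every aSYN/Hsp70 array above the Hsp70 mean, and the interaction had a limma adjusted p of 0.107.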

How the results depend on the processing

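The main effect made 0 calls in the fits without quantile normalisation, with an offset of 1 or 200, with no filter or the 60% filter, in the additive fit, with the replicate block and with the sex covariate. It made 1 call with array weights, 1 with the trended and robust variance and 2 without the 4 arrays of low weight, and 0 to 1 with 1 array left out. The aSYN difference without Hsp70, with 1 call, made 9 without quantile normalisation, 0 with no filter, 19 with the 60% filter, 2 with the replicate block, 217 with array weights, 0 with the sex covariate, 3 with the trended and robust variance and 35 without the 4 arrays of low weight, and 0 to 5 with 1 array left out. The aSYN difference with Hsp70, with 0 calls, made 5 with array weights and 4 without the 4 arrays, and 0 to 2 with 1 left out. The interaction, with 0 calls, made 5 without quantile normalisation, 8 with an offset of 200, 22 with the 60% filter, 81 with array weights, 24 with the trended and robust variance and 5 without the 4 arrays, and 0 to 30 with 1 left out. The causes were not tested.

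Of 1948 values of 56 named probe sets under the alternatives, 15 in 3 probe sets changed sign. Hspa1a, at -0.05, became 0.249 with array weights, 0.253 without the 4 arrays, 0.0069 without Hsp70 replicate 6 and 0.227 without aSYN/Hsp70 replicate 4, within a range of -0.139 to 0.227 with 1 array left out. The Hspa1b value of -0.12 was positive without Hsp70 replicate 6, wt replicate 4 or aSYN/Hsp70 replicate 2 (0.00431 to 0.0298) and ran from -0.233 to 0.0298 with 1 array left out. That of 0.03 was negative in 8 such fits (-0.0598 to -0.00625) and ran from -0.0598 to 0.162. All 1151 list medians moved by less than the SD within groups, but those of 14 of 32 lists, synaptic vesicles, striatal neurons and HSP70 chaperones among them, changed sign under at least 1 alternative.

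Whether replicate numbers pair the samples is not settled by the values. Same-numbered arrays correlated between -0.148 and 0.193, over 0.1 in 2 of 12 pairs. Yet 6 of 12 correlated best with their own number among the 6 arrays of the group they were set against. The replicate block changed no other count of adjusted calls. Dim probe sets have wide intervals, and the interval width limits what could be detected.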

Other observations

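The genes with 2 or more probe sets in 1 direction included several outside the lists, chosen here after their values were seen and none of them called. Arpp21, a cAMP-regulated phosphoprotein enriched in the striatum, was lower in carriers in 5 of 5 probe sets (-0.94 to -0.07). Slc4a8, a bicarbonate transporter, was lower in 4 of 4 (-0.91 to -0.01), the fatty acid desaturase Scd2 in 3 of 3 (-0.20 to -0.05), and the endocytic receptor Lrp1 in 2 of 2 (-0.59 and -0.18). The largest values of Arpp21 and Slc4a8 came from dim probe sets (mean log2 intensity 8.26 and 8.16). Those probe sets stood at -0.02 and 0.06 without Hsp70 and at -1.87 and -1.88 with it. The G protein subunit Gna12 was lower in 4 of 4 (-0.24 to -0.11). Its probe sets stood at -0.43 to -0.16 without Hsp70 but at -0.06 to 0.10 with it. Higher in carriers were Tpgs2, of the tubulin polyglutamylase complex, in 4 of 4 (0.16 to 0.42), the galectin Lgals1 in 2 of 2 (0.16 and 0.19) and the mitochondrial glutaredoxin Glrx2 in 3 of 3 (0.06 to 0.26). The probe sets of Glrx2 stood at 0.20 to 0.38 without Hsp70 and at -0.09 to 0.13 with it.

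Gnb1 and Prkcz lie near each other in the mouse genome, with 3 protein-coding genes between them, of which 1 was tested (Gabrd, -0.18). Main effects of the tested genes just outside the pair ran from -0.16 to 0.20, both at probe sets of Rer1. The Prkcz values below are those of 1 probe set, while the others of Prkcz had main effects of -0.03 and -0.02. In aSYN replicates 1, 4 and 6, Gnb1 read 14.16, 14.64 and 14.82 and Prkcz 12.56, 12.64 and 12.17. In aSYN replicates 2, 3 and 5, Gnb1 read 13.32, 13.42 and 12.74 and Prkcz 12.98, 13.23 and 13.01. The aSYN/Hsp70 arrays read 14.46 to 15.01 for Gnb1 and 12.46 to 12.71 for Prkcz. Among non-carriers, Hsp70 replicates 5 and 6 read 14.75 and 13.94 for Gnb1 and 12.76 and 12.89 for Prkcz. The lowest Prkcz value of the Hsp70 group, 12.68, belonged to neither of these arrays, and its highest was 13.25. The wt arrays read 12.36 to 13.22 for Gnb1 and 13.10 to 13.28 for Prkcz. The labels give nothing that divides the arrays in this way, and the pattern was not tested.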
